A study of Oryza sativa with 24 samples.

Results

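Wild-type rice (Oryza sativa, Nipponbare) cultured for 7 d on callus-inducing medium (CIM) was compared across all genes with wild-type cultured for 2 d on N6 medium. The comparison used 6 of the 24 RNA-seq libraries of the study, 3 on CIM at 7 d and 3 on N6, which were taken by the genotype, medium and day in the labels and by no measured value. CIM was N6 medium with 10 µM 2,4-D, a synthetic auxin, and the N6 medium of the control held no hormone. Neither group carried a transgene. The labels name mature embryos as the tissue, whereas the methods of the study name scutella taken from 10 seeds for each sample, so that a library pools seeds and cell types. N6 libraries exist for 2 d only. Medium and time therefore changed at once, and their parts in a difference between these groups cannot be told apart. Where the text needs them, wild-type libraries on CIM at 2 and 5 d and libraries of 35Spro:OsMIR393b, a line in which the 35S promoter drives a precursor of miR393, are set beside the 6 libraries.

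The scutellum, a shield-shaped part of the cereal embryo, borders the endosperm. In a germinating grain it secretes hydrolases and takes up the sugars and amino acids that the endosperm releases, and in tissue culture with 2,4-D cells at its surface divide and form callus. Auxin binds the F-box receptors of the TIR1/AFB family, which mark Aux/IAA repressors for degradation and thereby free auxin response factors (ARFs) to act on their target genes. Genes of the Aux/IAA, GH3 and SAUR families are classical early targets of auxin. In seeds of many plants, LEC1 and B3-domain factors of the ABI3/VP1 group direct embryo maturation, during which oleosins, storage proteins and late embryogenesis abundant (LEA) proteins are made, and PLETHORA (PLT) and WOX factors act in stem cells and embryos.

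Libraries held 61554276 to 69702164 counts on CIM at 7 d and 63859992 to 67475155 counts on N6. Levels are given as CPM, the count in 1000000 counts of a library, after TMM scaling, which sets libraries to a shared centre over most genes, with ± for the SD of 3 libraries. Log2 fold changes are CIM at 7 d minus N6, and adjusted p-values come from edgeR's quasi-likelihood test with Benjamini-Hochberg adjustment over all genes tested. The ± after a log2 fold change is an approximate standard error, its absolute value divided by the square root of that test's F statistic. CPM is not divided by gene length, so rankings, cut-offs and sums in CPM depend on length too. The most abundant gene of a family is given by FPKM, in which fragment counts are also divided by transcript length. The scaling factors were 1.21 to 1.23 on CIM at 7 d and 1.0 to 1.02 on N6, and the 1000 most abundant genes held 43.3 to 44% of the counts on CIM at 7 d, against 50.7 to 51.5% on N6. Replicates correlated at 0.969 to 0.971 on CIM at 7 d and at 0.954 to 0.964 on N6 (Pearson, log2 CPM, across genes that are not independent). Replicate 1 on N6 stood apart: among genes above 20 CPM, 83 were over 4 times lower in it than in the mean of the other N6 libraries, against 1 and 6 genes for N6 replicates 2 and 3. Counts from rRNA genes made up 0.192 to 0.313% of the libraries on CIM at 7 d and 0.0701 to 0.104% of those on N6. These are bulk samples, so fewer cells of a type and less RNA per cell cannot be told apart. The study calls the libraries of a group biological replicates, and the sources used here do not say that they came from separate cultures. The p-values therefore set a difference against the spread between libraries within groups, estimated from all 24 libraries in 8 groups.

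Of the 38866 genes deposited, 29710 passed the filter on low counts and were tested. Genes were called where the adjusted p was under 0.05 and the levels differed by more than 1 on the log2 scale. By this rule 4232 genes (14.2% of those tested) were higher on CIM at 7 d than on N6 and 4356 (14.7%) were lower. These 2 shares are the background against which the counts of gene families below are read. The 3 CIM libraries and the 3 N6 libraries did not overlap for 18512 genes (62.3%), among them 8326 of the 8588 genes called. Among the genes called, 248 of the higher ones reached a mean of 100 CPM on CIM at 7 d, and 559 of the lower ones reached it on N6. Of 50 genes at 1000 CPM or more on CIM at 7 d, 11 were called higher and 7 lower, and of 99 genes at that level on N6, 1 was called higher and 55 lower. Genes picked for a high level in a group are more often called toward that group, so these directions are partly set by the choice. With libraries scaled to their totals in place of TMM, the median log2 fold change over all genes moved by 0.28, and 5824 genes (19.6%) were called higher and 3425 (11.5%) lower. The share of called genes that were higher was thus 63% with library totals and 49.3% with TMM. All 4232 higher genes and 3425 of the lower ones were called the same way under both scalings. Without N6 replicate 1, 3847 genes were called higher and 4267 lower.

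**Figure D1:**
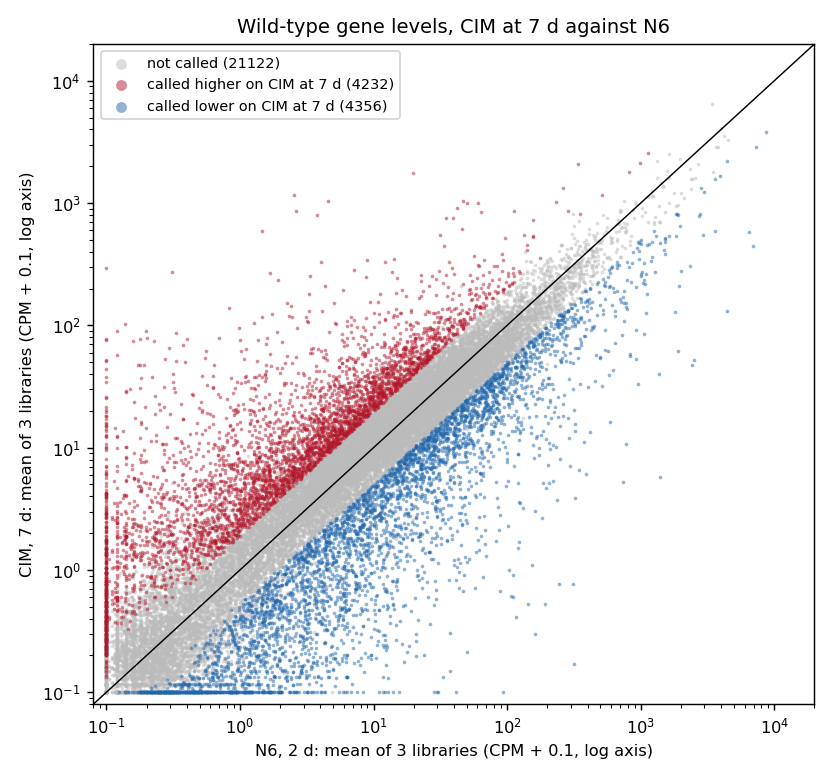
Mean level on CIM at 7 d (vertical axis) against N6 (horizontal axis) for the 29710 genes tested, in CPM plus 0.1 on log axes, each the mean of 3 libraries. The 4232 genes called higher lie above the diagonal and the 4356 called lower lie below it. Of the 99 genes at 1000 CPM or more on N6, a set picked by the N6 level, 55 are among the lower ones.

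The largest gains in CPM among called genes were a mixed group of secreted, storage-like and chaperone genes. Os03g0327600, annotated as a ricin B-related lectin, had 1835, 2108 and 2309 CPM on CIM at 7 d, against 526, 322 and 172 CPM on N6 (log2 fold change 2.62 ± 0.29, adjusted p = 5.3e-07). Os03g0197300, annotated as a cupin, a fold that many seed storage globulins share, had 1989.7, 1458 and 1803 CPM on CIM at 7 d, against 11.2, 30.8 and 17.4 CPM on N6 (log2 fold change 6.47 ± 0.89, adjusted p = 6.2e-06). All 3 CIM libraries lay above all 3 N6 libraries for both genes, and for the cupin by over an order of magnitude. The groups did not overlap for 62.3% of all genes tested. A pair of lipid transfer protein genes, whose products bind lipids outside the cell, followed: OsLTP1.2 (Os01g0822900) had 1186, 1038 and 1269 CPM on CIM at 7 d, against 2.89, 3.24 and 1.24 CPM on N6 (log2 fold change 8.89 ± 1.11, adjusted p = 2e-06). OsLTP1.18 (Os12g0115100) had 1031 ± 138 CPM on CIM at 7 d, against 46.7 ± 8.09 CPM on N6 (log2 fold change 4.47 ± 0.48, adjusted p = 3.7e-07). Os01g0839900, of the thaumatin family of pathogenesis-related proteins, had 1069, 1188 and 857 CPM on CIM at 7 d, against 1.79, 4.51 and 7.19 CPM on N6 (log2 fold change 7.85 ± 1.07, adjusted p = 5.5e-06). The gene for pyruvate orthophosphate dikinase, flo4 (Os05g0405000), which is known for its role in starch filling of the endosperm, had 1010.3, 966 and 1017 CPM on CIM at 7 d, against 58.7, 57.8 and 33 CPM on N6 (log2 fold change 4.32 ± 0.45, adjusted p = 2.3e-07). Neighbouring HSP90 genes on chromosome 9 gained with smaller folds, OsHSP82 (Os09g0482100) with 2575 ± 258 CPM on CIM at 7 d, against 1139 ± 83.1 CPM on N6 (log2 fold change 1.18 ± 0.16, adjusted p = 5.7e-06) and OsHsp80.2 (Os09g0482400) and OsHsp90 (Os09g0482600) with log2 fold changes of 1.12 and 1.14 (adjusted p = 1.8e-05 and 1.8e-05). They are closely related copies whose reads the counting may have split, so their separate levels are uncertain.

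Several of the largest losses in CPM were genes known from the germinating grain. AMY1A (Os02g0765600), an alpha-amylase of starch breakdown on chromosome 2, from 32248329 to 32250174 (IRGSP-1.0), had 240.4, 226 and 872 CPM on CIM at 7 d, against 5983, 7881 and 7035 CPM on N6 (log2 fold change -3.96 ± 0.54, adjusted p = 5.9e-06). CIM replicate 3 was the highest of its group for this gene, as it was for several others below. The groups did not overlap, as for 62.3% of all genes tested. OsSAG12-1 (Os01g0907600), a cysteine protease, had 14.1, 3.42 and 139 CPM on CIM at 7 d, against 2041, 2832 and 2657 CPM on N6 (log2 fold change -5.59 ± 1.02, adjusted p = 0.00014), and a lipoxygenase gene, Os10g0361000, had 71.3, 19.9 and 299.8 CPM on CIM at 7 d, against 3403, 4948 and 4970.4 CPM on N6 (log2 fold change -5.09 ± 0.72, adjusted p = 8.3e-06). For both, CIM replicate 3 was again the highest of the CIM libraries. Os07g0209100, annotated as a seed imbibition protein, averaged 46.9 ± 29.1 CPM on CIM at 7 d, against 2404 ± 332 CPM on N6 (log2 fold change -5.68 ± 0.46, adjusted p = 1.2e-08). Metallothioneins, small cysteine-rich metal-binding proteins, also stood among them: OsMT3a (Os01g0200700) averaged 577 ± 240.2 CPM on CIM at 7 d, against 6477 ± 779 CPM on N6 (log2 fold change -3.49 ± 0.36, adjusted p = 1.8e-07). OsMT2b (Os05g0111300) averaged 2889 ± 1072 CPM on CIM at 7 d, against 7279 ± 659 CPM on N6 (log2 fold change -1.33 ± 0.29, adjusted p = 0.00083). S-adenosylmethionine decarboxylase, an enzyme of polyamine synthesis, was represented by SAMDC (Os04g0498600) with 594 ± 96.2 CPM on CIM at 7 d, against 3612 ± 374 CPM on N6 (log2 fold change -2.61 ± 0.23, adjusted p = 3e-08). The glycolytic OsGapC1 (Os02g0601300) averaged 3842 ± 472 CPM on CIM at 7 d, against 8736 ± 425 CPM on N6 (log2 fold change -1.18 ± 0.16, adjusted p = 5.4e-06), and its call was lost when libraries were scaled to their totals.

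Some genes were at 0 in every library of a group. Of 826 tested genes at 0 in all N6 libraries, 410 were called higher on CIM at 7 d, and 27 of those averaged at least 10 CPM there. Of 863 genes at 0 in all CIM 7 d libraries, 470 were called lower, and 11 of those averaged at least 10 CPM on N6. A count of 12 per library, 3 fragments if a fragment is worth 4 counts as the low counts allow, was taken as the floor for a fold against such a group, equal to a mean of 0.15 CPM on CIM at 7 d and 0.182 CPM on N6. OsPLT3 (Os02g0614300), a PLETHORA factor, had 77.4, 93.5 and 59.2 CPM on CIM at 7 d, against 0, 0 and 0 CPM on N6 (at least 422-fold higher, adjusted p = 0.00077). shl4 (Os03g0449200), the rice ARGONAUTE7 that acts in making trans-acting small interfering RNAs, had 21, 22 and 21.3 CPM on CIM at 7 d, against 0, 0 and 0 CPM on N6 (at least 118-fold higher, adjusted p = 0.0017). Os08g0504000, annotated as similar to a WIP zinc finger protein, and OsZIP9 (Os05g0472400), a zinc transporter gene, were at least 241-fold and at least 189-fold higher (adjusted p = 3.8e-06 and 2.6e-05). In the other direction, 3 genes of unknown function close together on chromosome 10, all of the DUF1210 family, were at 0 on CIM at 7 d. Os10g0150700 had 0, 0 and 0 CPM on CIM at 7 d, against 30.8, 28.2 and 31.3 CPM on N6 (at least 201-fold lower, adjusted p = 4.9e-08), and its neighbours Os10g0150400 and Os10g0150800 were at least 198-fold and at least 188-fold lower (adjusted p = 6.6e-08 and 2.4e-08). OsLAC5 (Os01g0842500), a laccase, an oxidase that acts on lignin precursors, had 0, 0 and 0 CPM on CIM at 7 d, against 11.4, 10.2 and 13.5 CPM on N6 (at least 77.7-fold lower, adjusted p = 3e-06). Os04g0596900, annotated in the phosphoribulokinase and uridine kinase family, had 0, 0 and 0 CPM on CIM at 7 d, against 29.9, 122 and 129 CPM on N6 (at least 625-fold lower, adjusted p = 4.9e-06), with N6 replicate 1 the lowest of its group.

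**Figure D2:**
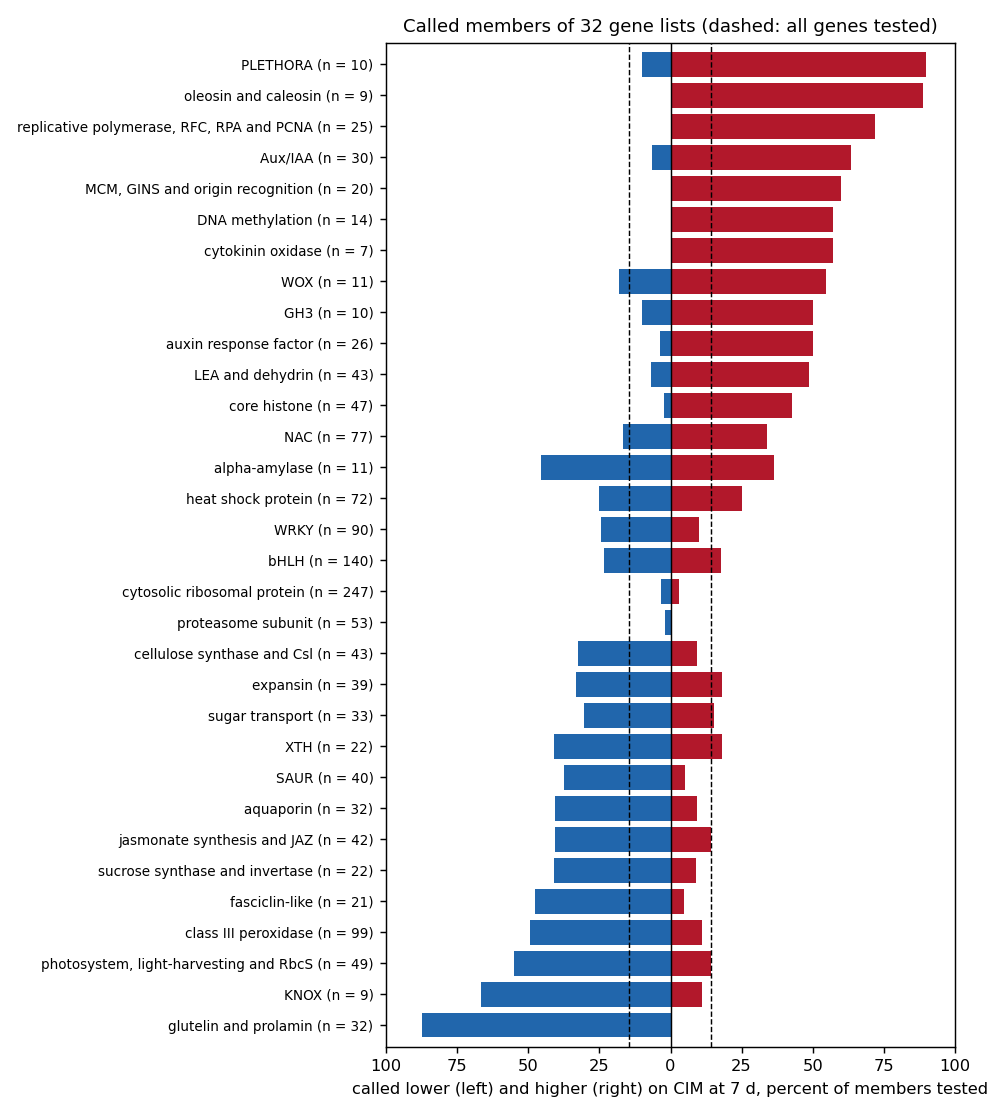
Share of tested members called higher (right of 0) and lower (left of 0) on CIM at 7 d against N6, in percent of the members tested, for 32 gene lists. Dashed lines mark the shares over all genes tested, 14.2% higher and 14.7% lower. PLETHORA, oleosin and replicative polymerase genes reach furthest to the right and glutelin and prolamin genes furthest to the left.

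Auxin response genes were higher on CIM at 7 d in most families but not in all. Of 30 tested Aux/IAA genes 19 were higher and 2 lower, with a median log2 fold change of 1.78 against 0.02 over all genes. OsIAA26 (Os09g0527700) had 42.8, 36.8 and 32.5 CPM on CIM at 7 d, against 0, 0 and 0 CPM on N6 (at least 205-fold higher, adjusted p = 1.4e-05). OsIAA4 (Os01g0286900) had 24.9, 23.3 and 30.6 CPM on CIM at 7 d, against 1.02, 1.21 and 1.45 CPM on N6 (log2 fold change 4.42 ± 0.28, adjusted p = 8.8e-10). The libraries of a group lay close together for both, and no N6 library reached the CIM range. The groups did not overlap for 62.3% of all genes tested. Of 10 GH3 genes, most of which encode amido synthetases acting on auxin, 5 were higher and 1 lower (2 lower without N6 replicate 1, N6 replicate 2, CIM replicate 1 or CIM replicate 2). GH3-8 (Os07g0592600), on chromosome 7, from 24149718 to 24152074, had 1250.2, 1397 and 1326 CPM on CIM at 7 d, against 138, 315 and 329 CPM on N6 (log2 fold change 2.35 ± 0.29, adjusted p = 2.1e-06). N6 replicate 1 was the lowest of the 6 libraries. OsGH3-4 (Os05g0500900) averaged 247 ± 15.7 CPM on CIM at 7 d, against 8.74 ± 3.12 CPM on N6 (log2 fold change 4.82 ± 0.6, adjusted p = 2e-06). The lower member was JAR1 (Os05g0586200), which conjugates jasmonate rather than auxin, with 15.3, 13.9 and 19.1 CPM on CIM at 7 d, against 94.2, 66.9 and 77.7 CPM on N6 (log2 fold change -2.3 ± 0.23, adjusted p = 1.5e-07).

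SAUR genes encode small auxin-induced proteins linked to cell expansion. Of 40 tested 2 were higher and 15 lower, with a median log2 fold change of -1.15, or -0.79 with genes at 0 in a group set to their bound. OsSAUR27 (Os06g0701900) had 0, 0.128 and 0.101 CPM on CIM at 7 d, against 16.8, 20.2 and 13.7 CPM on N6 (adjusted p = 6.2e-08). OsSAUR5 (Os02g0143400) had 0, 0 and 0.341 CPM on CIM at 7 d, against 18, 15.8 and 19.5 CPM on N6 (adjusted p = 1.5e-06). Both were at or under 1 CPM in all CIM libraries. The number of higher SAUR genes was 5 with library totals, and 4 without N6 replicate 1 or without N6 replicate 2.

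Of the auxin response factors about as many were higher as were not called. Of 26 tested ARF genes 13 were higher and 1 lower (17 and 0 with library totals), with a median log2 fold change of 0.98. OsARF5 (Os02g0141100), whose gene the study mutated, had 30.5, 34.3 and 31.2 CPM on CIM at 7 d, against 2.4, 3.14 and 3.6 CPM on N6 (log2 fold change 3.39 ± 0.66, adjusted p = 0.00026). OsARF19 (Os06g0702600) had 124, 121 and 121 CPM on CIM at 7 d, against 14.1, 13.4 and 15 CPM on N6 (log2 fold change 3.1 ± 0.31, adjusted p = 1.3e-07). By FPKM on CIM at 7 d the most abundant ARF was OsARF23 (Os11g0523800), at a mean of 194 FPKM on CIM at 7 d and 39.7 FPKM on N6, and its count level was 544 ± 58.5 CPM on CIM at 7 d, against 134 ± 12.1 CPM on N6 (log2 fold change 2.02 ± 0.17, adjusted p = 1.6e-08). OsARF4 (Os01g0927600) differed by less than the fold required, at 270.3 ± 6.94 CPM on CIM at 7 d, against 142 ± 8.27 CPM on N6 (log2 fold change 0.93 ± 0.08, adjusted p = 4.4e-08). For all of these 4 genes the libraries of the groups did not overlap, as for 62.3% of all genes tested.

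Genes that move and make auxin were divided. Of 17 transport genes 7 were higher and 3 lower. The higher ones included the influx carrier gene OsLAX2 (Os03g0244600), with 149.9, 172 and 133 CPM on CIM at 7 d, against 0.945, 1.52 and 4.0 CPM on N6 (log2 fold change 6.14 ± 1.02, adjusted p = 5.4e-05). Of the lower ones 2 were of the PILS type, carriers of the endoplasmic reticulum, and OsPILS2 (Os08g0191000) had 17.3 ± 1.1 CPM on CIM at 7 d, against 65.1 ± 6.61 CPM on N6 (log2 fold change -1.91 ± 0.13, adjusted p = 2.7e-09). Of 9 genes of auxin synthesis 3 were higher and 1 lower, all of them YUCCA flavin monooxygenases. OsYUCCA1 (Os01g0645400) had 3.11, 4.34 and 4.19 CPM on CIM at 7 d, against 0.203, 0.108 and 0.186 CPM on N6, with an N6 mean under the floor (adjusted p = 0.0011). OsYUCCA9 (Os01g0273800) averaged 17.6 ± 5.9 CPM on CIM at 7 d, against 4.16 ± 1.63 CPM on N6 (log2 fold change 2.08 ± 0.38, adjusted p = 0.00013), and YUCCA5 (Os12g0512000) was the lower one with 0, 0 and 0 CPM on CIM at 7 d, against 1.76, 3.38 and 4.22 CPM on N6 (at least 20.8-fold lower, adjusted p = 0.00013). The tryptophan aminotransferase gene FIB (Os01g0169800), which acts a step earlier, had 26.9 ± 3.59 CPM on CIM at 7 d, against 29 ± 2.32 CPM on N6 and was not called (log2 fold change -0.11 ± 0.15, adjusted p = 0.59). Among LBD factors, which act downstream of ARFs in organ initiation, 5 of 18 were higher and 3 lower. OsDH1 (Os02g0820500) had 47.1, 52.2 and 42.3 CPM on CIM at 7 d, against 0.174, 0 and 0.0618 CPM on N6 (adjusted p = 9.3e-08).

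The embryo regulators OsLEC1 and OsLFL1 were at or near 0 on N6 and measurable in every CIM library, and OsVP1 was higher on CIM at 7 d as well. OsLEC1 (Os02g0725700), a LEC1-type HAP3 (NF-YB) factor on chromosome 2, from 30164300 to 30165377, had 14.2, 13.8 and 17 CPM on CIM at 7 d, against 0, 0 and 0 CPM on N6 (at least 82.5-fold higher, adjusted p = 5.8e-05). OsLFL1 (Os01g0713600), a B3-domain factor related to LEC2 and FUS3, had 25.9, 23.8 and 30.4 CPM on CIM at 7 d, against 0.218, 0.465 and 0.356 CPM on N6 (log2 fold change 6.26 ± 0.82, adjusted p = 3.6e-06). OsVP1 (Os01g0911700), the rice VIVIPAROUS1 that acts in abscisic acid response of the seed, had 141, 104 and 131 CPM on CIM at 7 d, against 26.9, 30.5 and 28.4 CPM on N6 (log2 fold change 2.13 ± 0.33, adjusted p = 2.2e-05). The groups did not overlap for any of the 3, as for 62.3% of all genes tested. The study chose these genes with the present libraries in view, so that 3 of 3 higher is not independent evidence of their direction. Within the HAP3 family 4 of 10 were higher and 1 lower, and besides OsLEC1 its neighbour on chromosome 2, HAP3K (Os02g0725900), had 19.8, 16.4 and 19.4 CPM on CIM at 7 d, against 3.59, 2.77 and 0.866 CPM on N6 (log2 fold change 2.94 ± 0.49, adjusted p = 6e-05).

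PLETHORA genes were higher in 9 of 10 cases, with a median log2 fold change of 5.9, or 4.51 with genes at 0 on N6 set to their bound. OsPLT2 (Os06g0657500) had 117, 134 and 107 CPM on CIM at 7 d, against 2.04, 2.4 and 2.29 CPM on N6 (log2 fold change 5.74 ± 0.99, adjusted p = 8.2e-05). OsPLT7 (Os03g0770700) had 64.2, 55.2 and 65.2 CPM on CIM at 7 d, against 0.552, 0.821 and 1.38 CPM on N6 (log2 fold change 6.07 ± 0.93, adjusted p = 2.2e-05). OsPLT6 (Os11g0295900), annotated as BABY BOOM-like, had 117, 90.7 and 112 CPM on CIM at 7 d, against 12.6, 8.18 and 11.9 CPM on N6 (log2 fold change 3.29 ± 0.46, adjusted p = 8.2e-06). For these genes each CIM library lay well above every N6 library, and the groups did not overlap for 62.3% of all genes tested. OsPLT5 (Os01g0899800) had 54.9, 73.3 and 43 CPM on CIM at 7 d, against 0, 0.0619 and 0 CPM on N6 (adjusted p = 0.00024). The exception was OsPLT10 (Os03g0176300), with 20.9, 23.6 and 26.2 CPM on CIM at 7 d, against 89.7, 75.4 and 81.4 CPM on N6 (log2 fold change -1.8 ± 0.16, adjusted p = 4.4e-08). On CIM at 7 d OsPLT3 stood at 70.9 FPKM, OsPLT6 at 62.4 FPKM and OsPLT2 at 51.9 FPKM.

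Homeobox families divided. Of 11 WOX genes 6 were higher and 2 lower. DWT1 (Os01g0667400), a member known for its effect on growth of tillers, had 45.1, 34.4 and 35.3 CPM on CIM at 7 d, against 0.538, 0.821 and 0.232 CPM on N6 (log2 fold change 6.17 ± 0.85, adjusted p = 6.3e-06). Its call was lost with DESeq2. OsWOX2 (Os01g0840300) and OsWOX9C (Os05g0564500), both of which the study names, averaged 3.42 ± 0.915 and 1.8 ± 0.599 CPM on CIM at 7 d, against 0.0145 and 0 CPM on N6 (adjusted p = 5.8e-05 and 0.00019). WOX11 (Os07g0684900), a regulator of crown root emergence, had 31.4, 25.6 and 36.9 CPM on CIM at 7 d, against 25.4, 33 and 37.8 CPM on N6, and the groups overlapped (log2 fold change -0.03 ± 0.17, adjusted p = 0.89). Of 9 KNOX genes, a family of which some members mark shoot meristems, 1 was higher and 6 were lower. OSH6 (Os01g0302500) had 5.08, 5.3 and 4.52 CPM on CIM at 7 d, against 37.2, 49 and 43.4 CPM on N6 (log2 fold change -3.12 ± 0.19, adjusted p = 7.5e-10). OSH1 (Os03g0727000), the defining marker of the shoot meristem, had 0, 0 and 0 CPM on CIM at 7 d, against 1.6, 3.36 and 5.44 CPM on N6 (at least 23.1-fold lower, adjusted p = 2.4e-07). The summed level of the KNOX list was 23.7 to 25.9 CPM on CIM at 7 d and 97.4 to 121 CPM on N6, and the part of shoot tissue in the differences was not tested. Of the ROC genes, epidermal factors of HD-Zip class IV, 3 of 10 were higher and 1 lower (4 and 0 with library totals, and 2 lower without N6 replicate 3). Roc3 (Os10g0575600) had 23.2, 19.98 and 21.7 CPM on CIM at 7 d, against 0.16, 0 and 0.124 CPM on N6 (adjusted p = 9.6e-05). ROC4 (Os04g0569100) averaged 32.8 ± 5.38 CPM on CIM at 7 d, against 5.37 ± 0.368 CPM on N6 (log2 fold change 2.61 ± 0.19, adjusted p = 4.6e-09).

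Other families of transcription factors held members called in both directions. Among MADS-box genes 8 of 30 were higher and 2 lower. The list summed to 337 to 438 CPM on CIM at 7 d, against 136 to 138 CPM on N6. LHS1 (Os03g0215400), known from spikelet development, had 236, 165 and 183 CPM on CIM at 7 d, against 16.8, 11.8 and 20.3 CPM on N6 (log2 fold change 3.58 ± 0.69, adjusted p = 0.00023). MADS58 (Os05g0203800), known from floral meristems, had 0.251, 0 and 0.24 CPM on CIM at 7 d, against 10.1, 10.9 and 11.1 CPM on N6 (log2 fold change -6.04 ± 0.63, adjusted p = 2.4e-07). HD-Zip genes of classes I to III had 16 of 34 higher and 9 lower. The class III gene HOX10 (Os03g0109400) had 89.3 ± 8.73 CPM on CIM at 7 d, against 23.7 ± 4.37 CPM on N6 (log2 fold change 1.91 ± 0.19, adjusted p = 1.1e-07). Oshox4 (Os09g0470500) had 22.6 ± 7.91 CPM on CIM at 7 d, against 261 ± 7.79 CPM on N6 (log2 fold change -3.53 ± 0.28, adjusted p = 8.6e-09). NAC genes had 26 of 77 higher and 13 lower. ONAC013 (Os02g0252200) had 26.9, 38 and 27.8 CPM on CIM at 7 d, against 1.57, 1.16 and 0.557 CPM on N6 (log2 fold change 4.81 ± 0.46, adjusted p = 8.5e-08). ONAC121 (Os10g0571600) averaged 1.12 ± 0.362 CPM on CIM at 7 d, against 26.7 ± 1.78 CPM on N6 (log2 fold change -4.58 ± 0.45, adjusted p = 9.8e-08). WRKY genes, many of which act in defence, had 9 of 90 higher and 22 lower, with a median log2 fold change of -0.09 that turned to 0.19 with library totals. For bHLH, ERF, bZIP, Dof and GRAS genes the higher and lower counts were 25 and 33 of 140, 17 and 16 of 97, 13 and 13 of 80, 7 and 8 of 28, and 7 and 5 of 36. Those of the ERF, bZIP and GRAS genes were near the shares over all genes tested, 14.2% higher and 14.7% lower. OsEREBP (Os09g0434500), the most abundant ERF by FPKM on N6 but not on CIM at 7 d, had 33.9, 37.2 and 87.2 CPM on CIM at 7 d, against 915, 1034 and 838 CPM on N6 (log2 fold change -4.14 ± 0.38, adjusted p = 5.4e-08). CIM replicate 3 was again the highest of its group. OsbHLH118 (Os01g0707500), a bHLH gene annotated as similar to LAX PANICLE, averaged 1.8 ± 0.601 CPM on CIM at 7 d, against 63.2 ± 2.7 CPM on N6 (log2 fold change -5.13 ± 0.31, adjusted p = 7e-10).

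Seed maturation genes parted into lists that were higher and a list that was lower. Of 9 oleosin and caleosin genes, whose products coat oil bodies, 8 were higher and 0 lower, with a median log2 fold change of 2.92. OLE18 (Os03g0699000), on chromosome 3, from 28021888 to 28022831, had 171, 90.9 and 155 CPM on CIM at 7 d, against 0.436, 1.15 and 0.603 CPM on N6 (log2 fold change 7.58 ± 0.91, adjusted p = 1.3e-06). OLE16 (Os04g0546500) had 177, 60.5 and 157 CPM on CIM at 7 d, against 4.85, 4.44 and 2.66 CPM on N6 (log2 fold change 5.04 ± 0.74, adjusted p = 1.4e-05). For both, CIM replicate 2 was the lowest of its group and still far above every N6 library. The groups did not overlap for 62.3% of all genes tested. Of 43 LEA and dehydrin genes, whose products protect cells in drying, 21 were higher and 3 lower. Rab16A (Os11g0454300), a dehydrin induced by abscisic acid, had 319, 289 and 427 CPM on CIM at 7 d, against 12.8, 8.47 and 5.13 CPM on N6 (log2 fold change 5.29 ± 0.48, adjusted p = 3.9e-08). OsLEA22 (Os01g0702500) had 157, 76.1 and 118 CPM on CIM at 7 d, against 2.88, 2.06 and 2.18 CPM on N6 (log2 fold change 5.62 ± 0.67, adjusted p = 1.1e-06). By FPKM on CIM at 7 d the most abundant member was OsLEA3-1 (Os05g0542500), at 794 FPKM on CIM at 7 d and 49 FPKM on N6, with 853 ± 152 CPM on CIM at 7 d, against 63.3 ± 35.2 CPM on N6 (log2 fold change 3.75 ± 0.47, adjusted p = 2.4e-06). Among the 3 lower members, OsLEA24 (Os03g0655400) had 200.4, 212 and 343 CPM on CIM at 7 d, against 1376, 1141 and 482 CPM on N6 (log2 fold change -1.99 ± 0.39, adjusted p = 0.00027).

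Glutelin and prolamin genes, which encode the storage proteins of the endosperm, were lower in 28 of 32 cases and higher in 0, with library totals in 27 and 0. The median log2 fold change was -6.5, and -2.04 with the 20 genes at 0 in all CIM libraries set to their bound. Prol-01 (Os03g0766100), a prolamin, had 2.7, 0.827 and 7.8 CPM on CIM at 7 d, against 375, 361 and 238 CPM on N6 (log2 fold change -6.43 ± 0.65, adjusted p = 1.6e-07). GLUB5 (Os02g0268100), a glutelin, had 0, 0 and 0 CPM on CIM at 7 d, against 2.62, 4.12 and 5.91 CPM on N6 (at least 28.1-fold lower, adjusted p = 5.3e-05). The whole list summed to 4.87 to 10.7 CPM on CIM at 7 d and to 304 to 423 CPM on N6, so these endosperm markers were at higher levels in every N6 library than in any CIM 7 d library. The part that endosperm or its RNA had in any difference was not tested. Members of this family are similar in sequence, and reads may have been split among them. RPBF (Os02g0252400), a Dof activator of storage protein genes in the endosperm, had 1.35, 1.71 and 2.69 CPM on CIM at 7 d, against 29.4, 18.9 and 18.1 CPM on N6 (log2 fold change -3.53 ± 0.34, adjusted p = 7.9e-08).

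**Figure D3:**
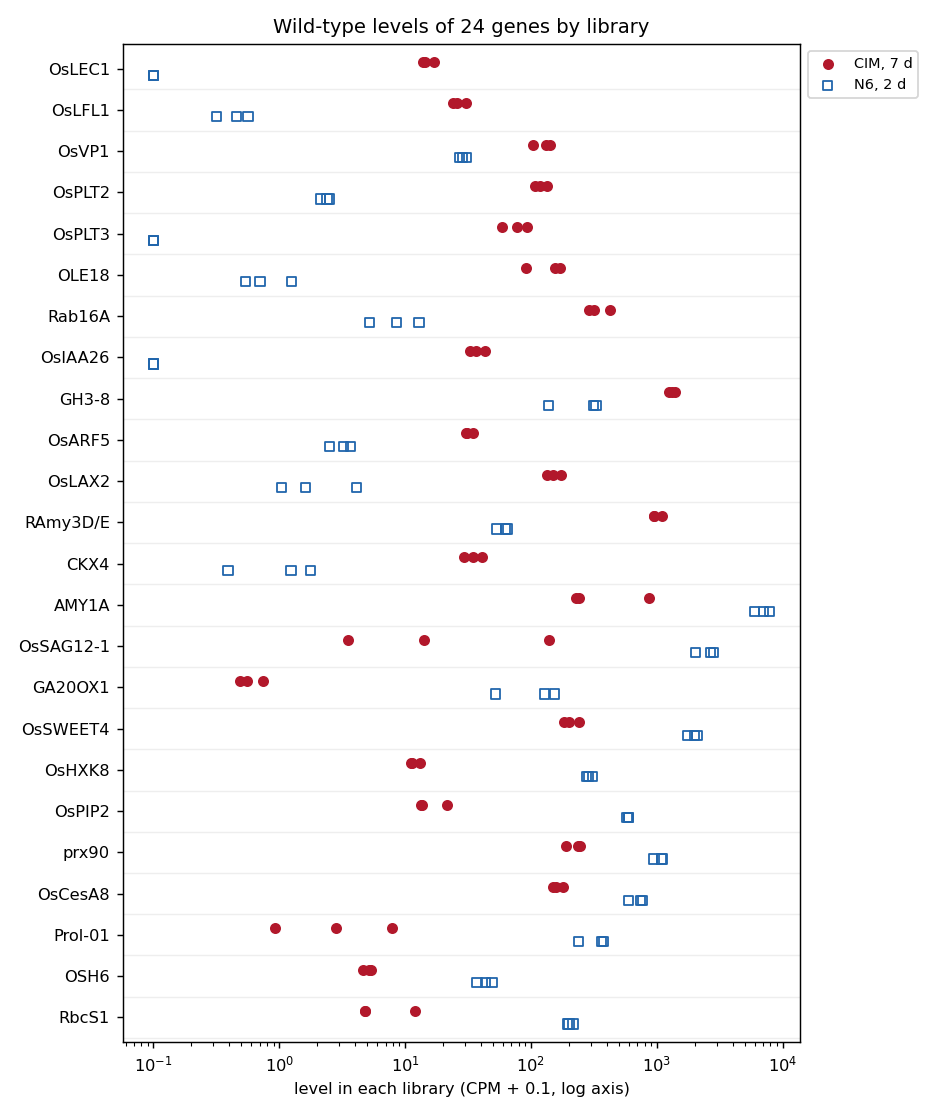
Level in each library for 24 named genes, in CPM plus 0.1 on a log axis, with the 3 libraries on CIM at 7 d (filled circles, upper of each pair) and the 3 on N6 (open squares, lower of each pair). For all 24 genes the groups lie apart, as they did for 62.3% of all genes tested and 8326 of the 8588 called. Embryo, oleosin, PLETHORA and auxin response genes lie to the right on CIM at 7 d. Genes of reserve breakdown, gibberellin synthesis, water channels and storage proteins lie to the right on N6.

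Genes of reserve breakdown were divided. Of 11 alpha-amylase genes 4 were higher and 5 lower (4 and 4 with library totals). RAmy3D/E (Os08g0473600), of the sugar-regulated RAmy3 group, had 944, 1105 and 949 CPM on CIM at 7 d, against 62.4, 64.9 and 52.9 CPM on N6 (log2 fold change 4.06 ± 0.9, adjusted p = 0.00086). RAmy3A/B/C (Os09g0457400) had 10.2, 20.1 and 20.8 CPM on CIM at 7 d, against 0, 0 and 0 CPM on N6 (at least 93.5-fold higher, adjusted p = 0.00019). AMY1A, the gibberellin-induced type, was by contrast lower, as given above. The summed level of the list was 1472 to 2485 CPM on CIM at 7 d, against 7177 to 8906 CPM on N6. Cysteine proteinases had 3 of 30 genes higher and 9 lower. The oryzain gene ocp (Os04g0650000) averaged 262 ± 5.36 CPM on CIM at 7 d, against 1009.7 ± 388 CPM on N6 (log2 fold change -1.94 ± 0.28, adjusted p = 1.2e-05), and a higher member was CP (Os08g0556900), with 90.3 ± 41.9 CPM on CIM at 7 d, against 0.0971 ± 0.0774 CPM on N6 (adjusted p = 3.6e-09). In fatty acid breakdown and the glyoxylate cycle, which turn seed oil into sugar, 2 of 17 genes were higher and 7 lower, a balance that turned to 4 and 3 with library totals. The malate synthase gene Os04g0486950 had 18.7, 22.9 and 38.5 CPM on CIM at 7 d, against 269, 262 and 264 CPM on N6 (log2 fold change -3.31 ± 0.25, adjusted p = 5.6e-09).

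Sugar transporters and hexokinases included strongly lower genes. Of 33 sugar transporter genes 5 were higher (3 without N6 replicate 3 or without CIM replicate 3) and 10 lower, and their sum was 651 to 696 CPM on CIM at 7 d, against 2359 to 2866 CPM on N6. OsSWEET4 (Os02g0301100), a SWEET transporter that stood at 179 FPKM on CIM at 7 d and 1381 FPKM on N6, had 183, 199 and 241 CPM on CIM at 7 d, against 1746, 1988 and 2086 CPM on N6 (log2 fold change -3.22 ± 0.25, adjusted p = 7e-09). OsSUT1 (Os03g0170900), a sucrose importer of the plasma membrane, had 36.8, 36 and 24.1 CPM on CIM at 7 d, against 121, 230.1 and 200.04 CPM on N6 (log2 fold change -2.51 ± 0.4, adjusted p = 3.6e-05). Sucrose synthase and invertase genes summed to 3011 to 4635 CPM on CIM at 7 d and 1606 to 3737 CPM on N6, which overlapped. Of these genes 2 of 22 were higher and 9 lower. SUS4 (Os03g0340500) was a higher one, with 303 ± 8.67 CPM on CIM at 7 d, against 79.9 ± 3.93 CPM on N6 (log2 fold change 1.93 ± 0.14, adjusted p = 4.2e-09), and SUS5 (Os04g0309600) a lower one, with 0, 0 and 0 CPM on CIM at 7 d, against 6.6, 6.33 and 7.17 CPM on N6 (at least 44.7-fold lower, adjusted p = 2.2e-07). Hexokinases phosphorylate and sense glucose: OsHXK8 (Os01g0190400) had 11.2, 11 and 13 CPM on CIM at 7 d, against 278, 307 and 286 CPM on N6 (log2 fold change -4.62 ± 0.29, adjusted p = 7.7e-10). OsHXK6 (Os01g0742500) had 19.9, 17.4 and 23.9 CPM on CIM at 7 d, against 419, 287 and 245 CPM on N6 (log2 fold change -3.96 ± 0.28, adjusted p = 2.9e-09). Over glycolysis and fermentation as a whole 12 of 79 genes were higher and 9 lower, with a median of -0.06 that was 0.22 with library totals.

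Gibberellin is the hormone that induces hydrolases in the grain, and its genes were divided by role. GA20OX1 (Os03g0856700), on chromosome 3, from 36150664 to 36152355, encodes a 20-oxidase of the late pathway and had 0.648, 0.384 and 0.455 CPM on CIM at 7 d, against 52, 128 and 153 CPM on N6 (log2 fold change -7.81 ± 0.63, adjusted p = 1.1e-08). OsKAO (Os06g0110000), an earlier oxidase, had 1.19, 1.55 and 2.79 CPM on CIM at 7 d, against 38.2, 43.4 and 34.7 CPM on N6 (log2 fold change -4.39 ± 0.45, adjusted p = 1.7e-07). Both were low in each CIM library and high in each N6 library, and the groups did not overlap for 62.3% of all genes tested. OsGA2ox8 (Os05g0560900), which inactivates gibberellin, had 24.5, 32.3 and 17.8 CPM on CIM at 7 d, against 0.218, 0.449 and 1.44 CPM on N6 (log2 fold change 5.15 ± 0.65, adjusted p = 2.1e-06). All 3 higher genes of the list were such inactivating oxidases. Over the list 3 of 11 were higher and 4 lower (4 and 3 with library totals). Of 8 GASR genes, which encode small cysteine-rich peptides regulated by gibberellin, 3 were higher and 1 lower. GASR2 (Os04g0465300) had 89.4, 119.9 and 98 CPM on CIM at 7 d, against 2.57, 2.93 and 10.003 CPM on N6 (log2 fold change 4.31 ± 1.0, adjusted p = 0.0013).

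Cytokinin oxidases, which degrade cytokinin, had 4 of 7 genes higher and 0 lower. CKX4 (Os01g0940000) had 34.6, 29.4 and 40.5 CPM on CIM at 7 d, against 0.291, 1.67 and 1.14 CPM on N6 (log2 fold change 5.07 ± 0.64, adjusted p = 2.5e-06). In abscisic acid synthesis, perception and kinase genes 1 of 14 were higher and 4 lower. The higher one was OsNCED1 (Os03g0645900), of the family that cleaves carotenoids to the precursor of abscisic acid, with 14, 5.87 and 9.8 CPM on CIM at 7 d, against 0.0581, 0 and 0 CPM on N6 (adjusted p = 1.4e-05), and all 4 lower ones were SAPK kinases, such as SAPK10 (Os03g0610900), with 13.2 ± 1.08 CPM on CIM at 7 d, against 78.2 ± 6.0 CPM on N6 (log2 fold change -2.56 ± 0.2, adjusted p = 7.4e-09). Jasmonate synthesis and JAZ repressor genes had 6 of 42 higher and 17 lower. OsOPR4 (Os06g0215900), annotated as an oxophytodienoate reductase, averaged 50.02 ± 3.91 CPM on CIM at 7 d, against 252 ± 43.4 CPM on N6 (log2 fold change -2.33 ± 0.22, adjusted p = 7.8e-08). OsJAZ9 (Os08g0428400), a JAZ gene, averaged 38.1 ± 4.08 CPM on CIM at 7 d, against 112 ± 23 CPM on N6 (log2 fold change -1.56 ± 0.17, adjusted p = 3.3e-07). In the synthesis of diterpenoid phytoalexins, antimicrobial compounds of rice, 3 of 16 genes were higher and 10 lower. The regulator OsTGAP1 (Os04g0637000) had 5.4 ± 0.626 CPM on CIM at 7 d, against 31.2 ± 10.9 CPM on N6 (log2 fold change -2.53 ± 0.3, adjusted p = 9.5e-07).

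Several cell wall families had more lower than higher genes. Class III peroxidases, which act on phenolics of the wall, had 11 of 99 genes higher and 49 lower, with a median log2 fold change of -2.03, or -1.65 with the 13 genes at 0 in a group at their bound. The list summed to 1646 to 1711 CPM on CIM at 7 d and to 4428 to 5832 CPM on N6. prx90 (Os06g0695500) had 189, 235 and 244 CPM on CIM at 7 d, against 951, 1096 and 1101 CPM on N6 (log2 fold change -2.24 ± 0.18, adjusted p = 8.6e-09). Its neighbour on chromosome 6, prx91 (Os06g0695400), had 8.34, 13.1 and 7.31 CPM on CIM at 7 d, against 0.218, 0.294 and 0.634 CPM on N6 (log2 fold change 4.65 ± 0.4, adjusted p = 2.3e-08), so that adjacent genes of the family differed in direction. Fasciclin-like arabinogalactan proteins, cell surface glycoproteins, had 1 of 21 higher and 10 lower. OsFLA6 (Os05g0563600) had 6.64, 4.09 and 10.2 CPM on CIM at 7 d, against 206, 337 and 338 CPM on N6 (log2 fold change -5.4 ± 0.49, adjusted p = 4.1e-08). OsFLA18 (Os05g0563550), beside it, averaged 0.813 ± 0.269 CPM on CIM at 7 d, against 109.9 ± 42 CPM on N6 (log2 fold change -7.08 ± 0.45, adjusted p = 9.8e-10).

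Cellulose synthase and Csl genes had 4 of 43 higher and 14 lower, and the number of higher ones was 1 without CIM replicate 1 and 2 without any one of the other 5 libraries. OsCesA8 (Os07g0208500), a cellulose synthase of primary walls, had 158, 150.3 and 180.2 CPM on CIM at 7 d, against 594, 772 and 744 CPM on N6 (log2 fold change -2.11 ± 0.12, adjusted p = 3.5e-10). Expansins, which loosen walls, had 7 of 39 higher and 13 lower. OsEXP4 (Os05g0477600) had 57.3 ± 5.33 CPM on CIM at 7 d, against 466 ± 88.9 CPM on N6 (log2 fold change -3.02 ± 0.37, adjusted p = 1.6e-06). Xyloglucan endotransglucosylases (XTH), which cut and rejoin wall polymers, had 4 of 22 higher and 9 lower. OsXTH3 (Os04g0631200), at a mean of 322 FPKM on CIM at 7 d and 10.8 FPKM on N6, had 338, 329.9 and 369 CPM on CIM at 7 d, against 13.8, 15 and 13.4 CPM on N6 (log2 fold change 4.62 ± 0.91, adjusted p = 0.00031). OsXTH17 (Os08g0237000) had 41.6, 42.4 and 56.3 CPM on CIM at 7 d, against 189.7, 281 and 216 CPM on N6 (log2 fold change -2.29 ± 0.21, adjusted p = 4.5e-08). Aquaporins, the water channels of plasma membrane and tonoplast, had 3 of 32 higher and 13 lower. OsPIP2 (Os07g0448100) had 13.2, 13.5 and 21.3 CPM on CIM at 7 d, against 598, 595 and 579 CPM on N6 (log2 fold change -5.21 ± 0.28, adjusted p = 1.9e-10). OsPIP2a (Os07g0448800) averaged 218 ± 19.7 CPM on CIM at 7 d, against 1078 ± 110.2 CPM on N6 (log2 fold change -2.3 ± 0.15, adjusted p = 1.4e-09). OsPIP1a (Os02g0666200) averaged 479 ± 50.3 CPM on CIM at 7 d, against 1522 ± 184 CPM on N6 (log2 fold change -1.67 ± 0.16, adjusted p = 7.5e-08). The summed aquaporin level was 1093 to 1316 CPM on CIM at 7 d, against 5219 to 6304 CPM on N6.

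Lists of DNA replication and division had more higher than lower genes, except that tubulin genes had 1 of 17 higher and 3 lower. Of 25 genes of polymerases, RFC, RPA and PCNA 18 were higher (13 to 19 with single libraries left out) and 0 lower. ST1 (Os06g0257450), a ribonucleotide reductase subunit that supplies deoxynucleotides, had 188, 182 and 212 CPM on CIM at 7 d, against 59.8, 48.1 and 48 CPM on N6 (log2 fold change 1.9 ± 0.23, adjusted p = 1.5e-06). OsPCNA (Os02g0805200), the sliding clamp of DNA polymerase, had 176, 174 and 176 CPM on CIM at 7 d, against 78.2, 45.3 and 62.6 CPM on N6 (log2 fold change 1.5 ± 0.45, adjusted p = 0.0084). MAD2 (Os04g0486500), of the spindle checkpoint, had 55.4, 55.3 and 55.7 CPM on CIM at 7 d, against 21.8, 25.3 and 18.6 CPM on N6 (log2 fold change 1.34 ± 0.25, adjusted p = 0.00017). CycD6 (Os07g0556000), a D-type cyclin, had 29.2 ± 1.94 CPM on CIM at 7 d, against 7.9 ± 0.793 CPM on N6 (log2 fold change 1.88 ± 0.2, adjusted p = 3.5e-07). The B-type cyclin CycB1 (Os01g0805600) had 56.3, 60.9 and 64.7 CPM on CIM at 7 d, against 33.4, 27.9 and 11.3 CPM on N6 and was not called (log2 fold change 1.32 ± 0.68, adjusted p = 0.11), with N6 replicate 3 the lowest library. The counts of several lists changed when a single N6 library was left out: without N6 replicate 3 the higher genes numbered 10 of the core histones, 8 of the cyclins, 8 of the kinesins and 7 of the MCM and origin recognition genes, against 20, 13, 17 and 12 with all libraries, and without N6 replicate 2 the last number was 4. Genes of DNA methylation and its removal had 8 of 14 higher and 0 lower. OsDDM1b (Os03g0722400), a chromatin remodeller needed for methylation in many plants, had 128, 131 and 116 CPM on CIM at 7 d, against 16.3, 13.4 and 17.4 CPM on N6 (log2 fold change 2.99 ± 0.63, adjusted p = 0.00054), and the DNA demethylase gene ROS1c (Os05g0445900) had 12.5, 12.2 and 16 CPM on CIM at 7 d, against 3.81, 3.75 and 3.68 CPM on N6 (log2 fold change 1.86 ± 0.2, adjusted p = 2.5e-07).

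Few genes of protein synthesis were called. Of 247 genes of cytosolic ribosomal proteins 7 were higher and 8 lower, with a median log2 fold change of -0.14 that was 0.14 with library totals (12 higher and 1 lower), and without N6 replicate 3, CIM replicate 1 or CIM replicate 2 the higher ones numbered 4. Proteasome subunits had 0 of 53 higher and 1 lower (0 without N6 replicate 1 or N6 replicate 2), ribosome biogenesis genes 1 and 1 of 29 (2 higher without N6 replicate 1), and translation factors 3 and 3 of 51 (1 higher without N6 replicate 3). Heat shock protein genes had 18 of 72 higher and 18 lower (22 and 15 with library totals). Oshsp17.9A (Os03g0266300), a small heat shock protein, had 741, 869.99 and 676 CPM on CIM at 7 d, against 55.8, 34.4 and 27.6 CPM on N6 (log2 fold change 4.28 ± 0.37, adjusted p = 2.7e-08). HSP70 (Os11g0703900), at 3236 FPKM on CIM at 7 d and 1423 FPKM on N6, had 6963, 6777 and 5658 CPM on CIM at 7 d, against 2900.4, 3525 and 3894 CPM on N6, below the fold required (log2 fold change 0.91 ± 0.15, adjusted p = 6.1e-05). The median log2 fold change of the tubulin genes, -0.24, was 0.03 with library totals. OsTUB4 (Os01g0805900) was among the lower genes, with 77.4, 84.1 and 85.2 CPM on CIM at 7 d, against 288, 432 and 434 CPM on N6 (log2 fold change -2.22 ± 0.13, adjusted p = 3.8e-10).

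Genes of green tissue and of nitrogen uptake had more lower than higher members. Of 49 photosystem, light-harvesting and RbcS genes 7 were higher (4 without N6 replicate 3) and 27 lower (18 to 28 with single libraries left out). They summed to 51.3 to 59 CPM on CIM at 7 d, against 278 to 369.7 CPM on N6. RbcS1 (Os02g0152400), a small subunit of Rubisco, had 4.72, 4.7 and 11.9 CPM on CIM at 7 d, against 216, 196 and 200.3 CPM on N6 (log2 fold change -4.84 ± 0.43, adjusted p = 3.2e-08). The part of green tissue in the N6 libraries was not tested. Nitrate and ammonium genes had 3 of 36 higher and 12 lower, and NiR (Os01g0357100), which reduces nitrite, had 173, 175 and 199.6 CPM on CIM at 7 d, against 1074, 1103 and 1167 CPM on N6 (log2 fold change -2.61 ± 0.17, adjusted p = 1.6e-09). Of 14 metallothionein genes 3 were higher and 8 lower. Of 4 tested root markers of the RCc type 1 was higher, OsHyPRP09 (Os10g0349300), whose means were under the floor in both groups and whose call was lost when any one of the 6 libraries was left out, and 1 was lower (2 without N6 replicate 3). The lower one, RCc2 (Os10g0551800), had 9.28, 19.4 and 13.3 CPM on CIM at 7 d, against 80.8, 152 and 131 CPM on N6 (log2 fold change -3.11 ± 0.43, adjusted p = 7.5e-06). RCc3 (Os02g0662000) had 6.88, 12.9 and 17 CPM on CIM at 7 d, against 15, 53.6 and 8.95 CPM on N6, where the groups overlapped (log2 fold change -1.07 ± 0.52, adjusted p = 0.092).

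Comparisons at a matched day or on the matched medium were set beside the main one. On CIM at 2 d against N6, where the day was the same, 1277 genes (4.30%) were higher and 1191 (4.01%) lower. Between CIM at 7 d and CIM at 2 d, where the medium was the same, 2509 (8.44%) were higher and 3185 (10.7%) lower. The first shares its N6 libraries, and the second its CIM 7 d libraries, with the comparison above, so their values are set side by side only. Aux/IAA genes had 18 higher and 1 lower at 2 d, close to the number at 7 d, and their sum was 573 ± 27.7 CPM on N6 and 1865 ± 114, 1725 ± 49.9 and 1443 ± 42.4 CPM on CIM at 2, 5 and 7 d. SAUR genes had 11 higher and 3 lower at 2 d, and 0 higher and 20 lower between 2 and 7 d on CIM. Peroxidases had 21 higher and 12 lower at 2 d, and 4 and 50 between 2 and 7 d. In both families more genes were lower between 2 and 7 d on CIM than at 2 d on CIM against N6.

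Other lists differed mainly at the later time or mainly at 2 d. Glutelin and prolamin genes had 1 lower at 2 d and 27 lower between 2 and 7 d, and their sum was 378 ± 64.3 CPM on N6 and 134 ± 5.33, 13.8 ± 5.65 and 7.2 ± 3.12 CPM on CIM at 2, 5 and 7 d. Alpha-amylase genes had 0 higher and 0 lower at 2 d, and 4 higher and 5 lower between 2 and 7 d. The embryo regulators were not called at 2 d and all 3 were higher at 7 d than at 2 d on CIM. OsLEC1 averaged 0 CPM on N6 and 0.059, 13.3 and 15 CPM on CIM at 2, 5 and 7 d. OsPLT7, which was called higher at 2 d as well, was at 42.4 ± 13.1 CPM at 2 d, and oleosin and caleosin genes summed to 33.3 ± 1.42 CPM on N6 and 115 ± 32.2, 385 ± 111 and 434 ± 119 CPM on CIM at 2, 5 and 7 d. Green tissue genes had 0 higher and 24 lower at 2 d, and 11 higher and 4 lower between 2 and 7 d on CIM, while their sum was 309 ± 52.6 CPM on N6 and 139 ± 13, 51.8 ± 7.85 and 54.9 ± 3.86 CPM on CIM at 2, 5 and 7 d. GA20OX1 averaged 111 CPM on N6 and 16.9, 0.44 and 0.496 CPM on CIM at 2, 5 and 7 d. The RAmy3D/E gene stood at 60.1 CPM on N6 and at 131, 302 and 999 CPM at 2, 5 and 7 d, its highest mean of these 4 groups being that at 7 d.

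**Figure D4:**
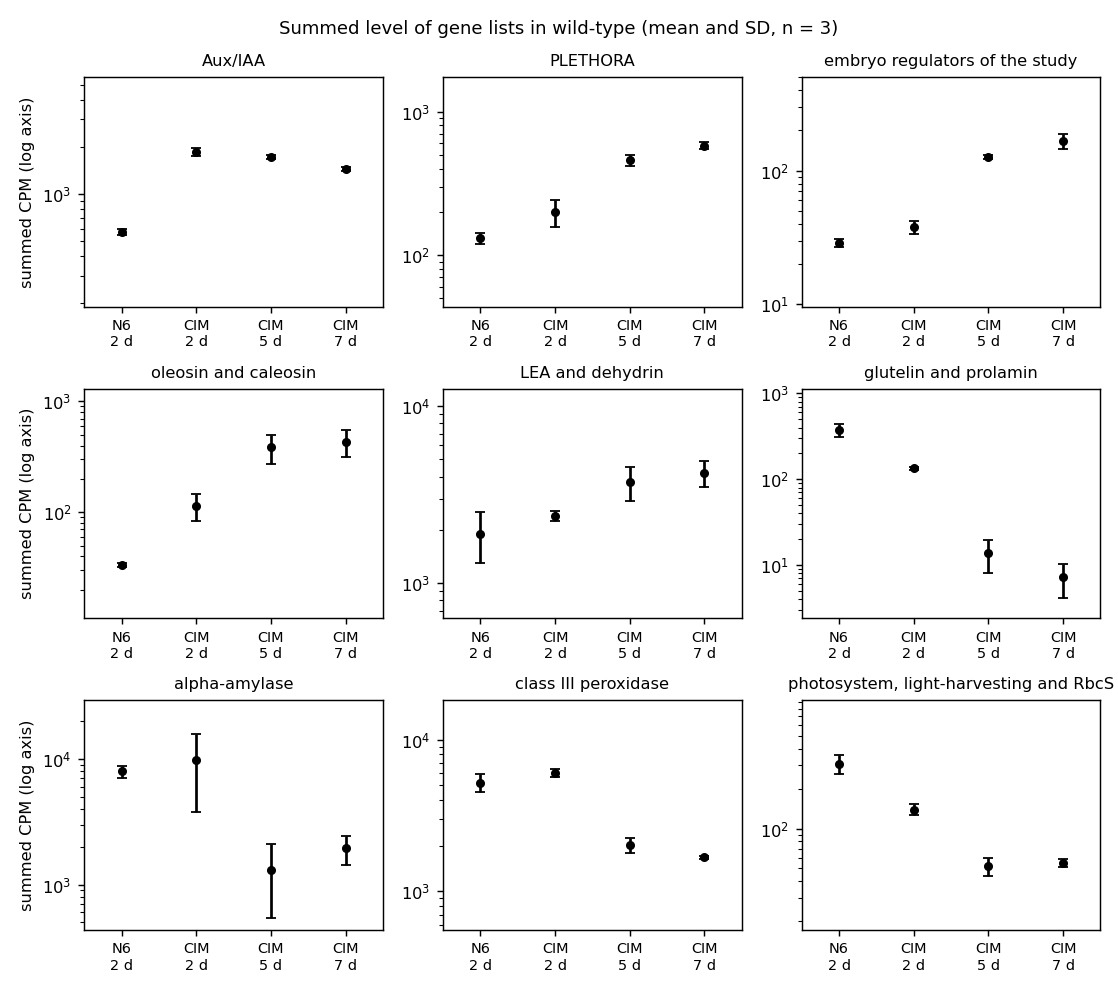
Summed level of 9 gene lists in wild-type on N6 at 2 d and on CIM at 2, 5 and 7 d, in CPM on a log axis, as the mean and SD of 3 libraries for each group. Aux/IAA genes are high from 2 d on CIM, glutelin and prolamin, peroxidase and alpha-amylase genes drop between 2 and 7 d, and oleosin and embryo regulator genes are higher at 5 and 7 d than at 2 d.

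The change between CIM at 7 d and N6 was also compared between the genotypes, as the change in wild-type minus the change in 35Spro:OsMIR393b. OsTIR1, whose transcript miR393 targets, had lower means in the line on both media: OsTIR1 (Os05g0150500) averaged 97 ± 7.74 CPM on CIM at 7 d and 110.5 ± 6.22 CPM on N6 in wild-type, against 26.8 ± 3.66 CPM on CIM at 7 d and 26 ± 1.63 CPM on N6 in the line. By this measure wild-type changed more positively than the line for 4793 genes (16.1%) and more negatively for 4596 (15.5%), and for 8045 and 2724 with library totals. OsLFL1 averaged 0.0674 CPM on CIM at 7 d and 0.0639 CPM on N6 in the line, where both means were under the floor, and its change was called more positive in wild-type (adjusted p = 0.0035). OsVP1 in the line was at 5.65 ± 1.94 CPM on CIM at 7 d and 41 ± 12 CPM on N6, with a difference in change of 4.99 ± 0.47 (adjusted p = 3e-07). Of the oleosin and caleosin genes 8 of 9 changed more positively in wild-type and 0 more negatively, of the LEA genes 20 and 4 of 43, and of the PLETHORA genes 6 and 1 of 10. Among the PLETHORA genes 2 were at 0 in all N6 libraries of wild-type. The summed LEA level was 4183 ± 701 CPM on CIM at 7 d and 1901 ± 606 CPM on N6 in wild-type, against 15715 ± 1695 CPM on CIM at 7 d and 3919 ± 557 CPM on N6 in the line, where OsLEA24 held most of it on CIM at 7 d. OsLEC1 averaged 0.043 CPM on CIM at 7 d in the line, against 15 CPM in wild-type, and was at 0 in every N6 library of both. Its difference in change was not called (adjusted p = 1), and with 0 in both N6 groups it could not be estimated.

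For other genes the difference had the opposite sign or was not called. AMY1A averaged 24693 ± 4044 CPM on CIM at 7 d in the line and 15037 ± 894 CPM on N6, and the difference in change was -4.68 ± 0.71 (adjusted p = 3.1e-05). OsLEA24 averaged 14040.03 ± 1689.8 CPM on CIM at 7 d in the line and 2511 ± 225 CPM on N6, with a difference in change of -4.47 ± 0.55 (adjusted p = 3.6e-06). The GH3 gene that conjugates jasmonate, JAR1, did not differ in change beyond the threshold (-0.22 ± 0.31, adjusted p = 0.62), and nor did GH3-8 (0.76 ± 0.4, adjusted p = 0.13). OsPLT5 was at 0 in all N6 libraries of the line and averaged 6.88 ± 6.53 CPM on CIM at 7 d there, and its change was not called different (adjusted p = 0.9). With N6 levels at or near 0 in both genotypes, its difference in change could not be estimated, so the missing call does not show equal changes.

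**Figure D5:**
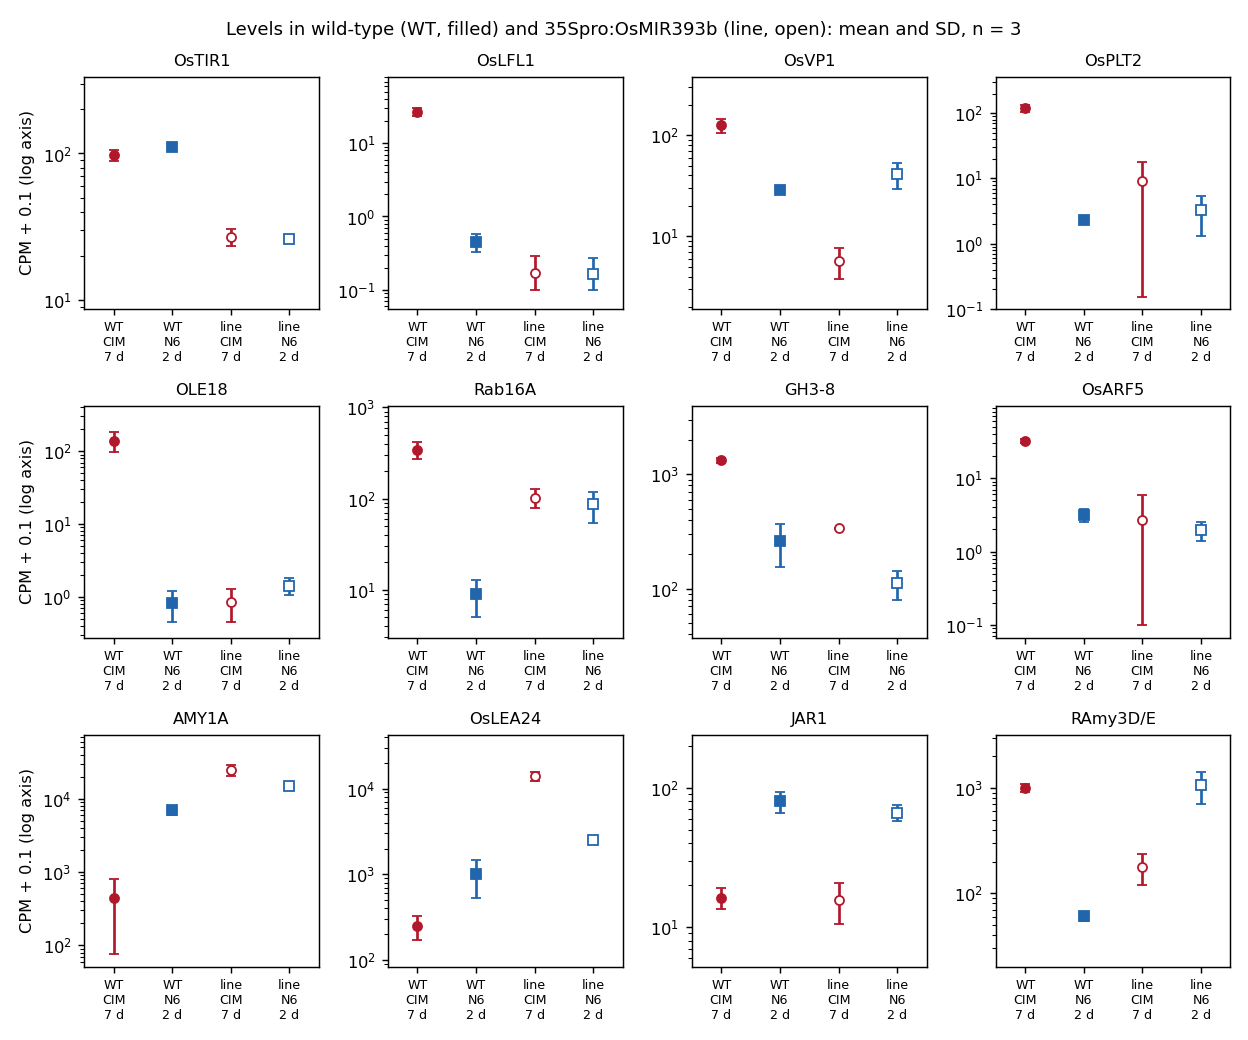
Mean level with SD of 3 libraries (bars stop at 0 CPM) for 12 genes in wild-type on CIM at 7 d and on N6 and in 35Spro:OsMIR393b on CIM at 7 d and on N6, in CPM plus 0.1 on a log axis. In wild-type OsLFL1, OsVP1, OLE18 and Rab16A are higher on CIM at 7 d than on N6, while in the line the mean of OsVP1 lies lower on CIM at 7 d than on N6 and AMY1A lies above its wild-type levels on both media.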

How the data were processed

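Wild-type and 35Spro:OsMIR393b embryos on N6 (2 d) or CIM (2, 5 and 7 d) gave 24 libraries, 3 for each of 8 groups, grouped by the labels. The labels' processing notes name Trimmomatic 0.36, HISAT2 2.1.0 and StringTie 1.3.4d on IRGSP-1.0. The authors deposited estimated counts per gene, written as whole numbers, and FPKM values. The methods also name UMI-tools, and whether the deposited counts were deduplicated is not given in the sources used here. Counts of 4 were more frequent than counts of 3 or 5, so that a fragment may be worth several counts and counting error is larger than the totals imply. The kit does not mark strand, so reads of overlapping or antisense genes cannot be told apart. No column was left unmapped and no row lacked a gene.

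All 24 libraries were fitted together with edgeR 4.0.16 (R 4.3.3; TMM factors, filterByExpr by group, glmQLFit and glmQLFTest). A gene was called at a Benjamini-Hochberg adjusted p under 0.05 with an absolute log2 fold change above 1. On simulated counts of the main comparison (28984 genes tested), 80% of genes changed by 1.5 and 96% of those changed by 2 on the log2 scale were called, with 5 false calls. The simulation changed few genes, equally up and down, with an assumed spread between libraries. It held no shift in scaling, no library that stood apart and no fragments worth several counts. Its false calls therefore give no error rate for the calls in the real libraries. Alternatives were DESeq2 1.42.0, RLE factors, library totals, no filter, only the compared groups, a replicate block, counts divided by 4, limma 3.58.1 on log2(FPKM + 0.1), and each library left out in turn.

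The genes and the 68 gene lists were chosen with earlier results of these data known. Genes to name were those the study gives by ID, the 15 highest and 15 lowest log2 fold changes among called genes without overlap and with 10 CPM or more in the higher group, the 10 largest gains and losses in CPM, and in each list the 4 called members with the smallest p, the 2 with the highest FPKM, and all members of lists of up to 6. The text names part of these, and some are not reported here. Columns of annotation were taken as deposited, and coordinates are those of the deposited table.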

Additional observations from a re-analysis of the deposited data

Results flagged for a closer look

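The change between CIM at 7 d and N6 was tested in edgeR for a difference between wild-type and 35Spro:OsMIR393b. At an adjusted p under 0.05 and more than 1 on the log2 scale, 4793 genes (16.1%) were more positive in wild-type. More negative were 4596 (15.5%). Among the 131 genes named here the numbers were 53 and 48. Many of the named genes were picked by their change in wild-type. That change is part of the difference tested, so their share cannot be read against that of all genes. With library totals 8045 genes were more positive and 2724 more negative, and the median difference was 0.6 against 0.07 with TMM. Calls of the named genes with library totals are not given here, so the smaller differences may depend on the scaling. The differences of the 53 and 48 genes (change in wild-type minus change in the line, log2) follow by group. For genes whose mean was 0 or under the floor of 12 counts in a group the fitted value depends on the prior count, so that it is neither a fold nor a bound. This applied to Os10g0150700, Os10g0150800, OsLAC5, OsSAUR27, YUCCA5, OsDH1, OsLFL1, OsWOX2, OSH1, Roc3, GLUB5, RAmy3A/B/C, CP, SUS5, OsNCED1, OsHyPRP09 and GLP8-3.

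Among the genes with the largest gains and losses the difference was 1.58 for Os03g0327600, 8.51 for Os03g0197300, 8.15 for OsLTP1.2, 4.78 for OsLTP1.18, 3.74 for Os01g0839900, 2.17 for flo4, 1.6 for OsHSP82, 1.66 for OsHsp80.2 and 1.62 for OsHsp90. It was -4.68 for AMY1A, -3.34 for OsSAG12-1, -3.46 for Os10g0361000, -4.04 for Os07g0209100, -5.43 for OsMT3a, -3.09 for OsMT2b, -3.18 for SAMDC, -6.02 for Os10g0150700, -7.93 for Os10g0150800 and -7.74 for OsLAC5. Among the auxin genes the difference was 1.54 for OsIAA4, 3.2 for OsGH3-4, 2.9 for OsARF5, 1.98 for OsARF19, 2.66 for OsARF23, 1.3 for OsARF4, 3.2 for OsLAX2, 1.58 for OsYUCCA9 and 5.35 for OsDH1. It was -5.97 for OsSAUR27, -1.47 for OsPILS2 and -7.38 for YUCCA5. Among the embryo, PLETHORA and homeobox genes the difference was 6.21 for OsLFL1, 4.99 for OsVP1, 7.09 for HAP3K, 4.25 for OsPLT2, 4.24 for OsPLT7, 3.79 for OsPLT6, 7.07 for DWT1, 8.31 for OsWOX2, 11.5 for Roc3 and 1.06 for ROC4. It was -1.49 for OsPLT10, -2.02 for OSH6 and -9.57 for OSH1. Among the other transcription factors the difference was 1.49 for HOX10 and 2.17 for ONAC013. It was -6.1 for MADS58, -2.18 for Oshox4, -6.8 for ONAC121, -4.6 for OsEREBP and -4.08 for OsbHLH118. Among the seed maturation and storage genes the difference was 8.37 for OLE18, 8.01 for OLE16, 5.05 for Rab16A, 7.36 for OsLEA22 and 4.27 for OsLEA3-1. It was -4.47 for OsLEA24, -4.07 for Prol-01, -8.46 for GLUB5 and -4.08 for RPBF. Among the genes of reserve breakdown, sugar and gibberellin the difference was 6.63 for RAmy3D/E, 14.16 for RAmy3A/B/C and 4.56 for CP. It was -2.61 for ocp, -2.93 for Os04g0486950, -4.15 for OsSWEET4, -11.65 for SUS5, -3.81 for OsHXK8, -3.87 for OsHXK6, -7.25 for GA20OX1 and -3.81 for OsKAO. Among the genes of other hormones and defence the difference was 3.51 for CKX4 and 7.69 for OsNCED1. It was -1.55 for SAPK10, -2.42 for OsOPR4 and -3.89 for OsTGAP1. Among the cell wall and water channel genes the difference was 1.34 for OsEXP4 and 3.36 for OsXTH3. It was -1.4 for prx90, -4.88 for OsFLA6, -4.61 for OsFLA18, -2.08 for OsXTH17, -2.83 for OsPIP2, -1.93 for OsPIP2a and -1.9 for OsPIP1a. Among the genes of division, chromatin and folding the difference was 1.72 for ST1, 2.23 for OsPCNA, 1.5 for MAD2, 1.39 for CycD6, 2.4 for CycB1, 2.62 for OsDDM1b, 2.03 for ROS1c, 3.13 for Oshsp17.9A and 1.13 for HSP70. Among the remaining genes the difference was 9.94 for OsHyPRP09 and 4.26 for GLP8-3. It was -2.41 for RbcS1, -2.2 for NiR, -4.09 for OsGLP2-1, -4.59 for OsRALF-31 and -2.19 for OsGH9A3.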

How the results depend on the processing

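The numbers of genes called on CIM at 7 d against N6 stayed within 1.5 times of 4232 higher and 4356 lower under each alternative run: DESeq2 gave 4270 and 4634, RLE factors 4089 and 4446, no filter 4158 and 4301, only the compared groups 4348 and 4185, counts divided by 4 gave 4168 and 4408, limma on FPKM 5967 and 3305, and library totals 5824 and 3425. Leaving out each library in turn gave 3648 to 3931 higher and 4039 to 4378 lower. Between CIM at 7 d and CIM at 2 d the higher genes numbered 3982 with library totals and 4293 with limma on FPKM, and 2033 to 2586 higher and 2855 to 3255 lower without single libraries. For the difference between genotypes library totals gave 8045 and 2724 and limma on FPKM 8566 and 2782, with 4219 to 5254 and 4263 to 4758 without single libraries. Library totals moved the median log2 difference of all genes in these comparisons, and no other cause was tested. In lists not yet given with totals, the Aux/IAA genes had 1 lower, ABA genes 2 higher, FLA genes 2 higher, aquaporins 5 higher, MADS-box genes 1 lower, translation factors 1 lower, ribosome biogenesis genes 2 higher and proteasome subunits 0 lower. Of 403 genes that the naming rule selects 336 were called, and 301 of those were called in every alternative run on single genes: 18 lost the call with library totals, 3 with DESeq2 and 21 without a single library. No called direction reversed in them. Same-numbered CIM and N6 libraries deviated with correlations of -0.0319, -0.0213 and -0.031, so no pairing by number was seen. With 3 libraries per group this check cannot exclude that same-numbered samples were handled together. A replicate block gave 4124 and 4276 genes for the main comparison, 2427 and 3107 for CIM at 7 d against 2 d and 4664 and 4515 for the difference between genotypes. The promoter motif search was not run. With 3 libraries per group, changes under 2-fold were not called by the rule, and genes near the floor of 12 counts could not be compared by a fold.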

Other observations

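Small secreted proteins were also counted on CIM at 7 d against N6, where 14.2% of all genes tested were higher and 14.7% lower. Of 21 germin-like genes, whose products are apoplastic proteins linked to defence, 3 were higher and 4 lower, close to those shares. In all N6 libraries 7 were at 0. GLP8-3 (Os08g0189200) had 61.9, 47.3 and 33.2 CPM on CIM at 7 d, against 0.218, 0 and 0 CPM on N6 (adjusted p = 1.2e-07), while OsGLP2-1 (Os02g0532500) had 2.0, 1.25 and 4.07 CPM on CIM at 7 d, against 28.2, 33.5 and 35.5 CPM on N6 (log2 fold change -3.73 ± 0.41, adjusted p = 4.9e-07). Among CLE, RALF, EPF and TPD1-like peptides 5 of 41 were higher (3 without N6 replicate 2 or without CIM replicate 2) and 12 lower. RALF peptides raise the pH of the cell wall, and OsRALF-31 (Os11g0448700) had 0.291, 0.245 and 0.732 CPM on CIM at 7 d, against 10.4, 13.8 and 17.8 CPM on N6 (log2 fold change -5.05 ± 0.55, adjusted p = 4.3e-07). In both families the 3 libraries of each group lay apart for the genes named, as they did for 62.3% of all genes tested.

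Growth-regulating factors, which act with GIF coactivators in dividing organs, had 4 of 14 genes higher and 1 lower, and the higher ones numbered 2 without N6 replicate 1, N6 replicate 2, CIM replicate 1 or CIM replicate 3. OsGIF1 (Os11g0615200) had 50.5, 50.6 and 53.2 CPM on CIM at 7 d, against 40.6, 37.8 and 39.1 CPM on N6, below the fold required (log2 fold change 0.39 ± 0.09, adjusted p = 0.00096). Endoglucanases of the GH9 family, which act on cellulose, had 7 of 19 higher and 8 lower. OsGH9A3 (Os03g0736300) had 54.8, 52.3 and 72.4 CPM on CIM at 7 d, against 279, 313 and 296 CPM on N6 (log2 fold change -2.31 ± 0.18, adjusted p = 6.1e-09). Of 1195 tested genes that the annotation does not class as protein-coding, 114 were higher and 112 lower.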
